A study of Mus musculus with 9 samples.

Results

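The 10 transcripts described here encode enzymes of membrane phospholipid synthesis: Chka, Chkb, Pcyt1a, Pcyt2, Cept1, Chpt1, Ptdss1, Pisd, Cds2 and Cdipt. They were taken by symbol from a count table of 53342 mouse genes as the genes that make phosphatidylcholine, phosphatidylethanolamine, phosphatidylserine and phosphatidylinositol. Each symbol had 1 row, and all 10 were among the 12511 genes with enough counts to be tested. The cells were bone-marrow-derived macrophages (macrophages grown from marrow in culture) of wild-type C57BL/6J mice of both sexes aged 8 to 12 weeks, in 3 groups of 3 libraries. The groups received Torin-2, which blocks the ATP site of the mTOR kinase and so both of its complexes, rapamycin, which inhibits the mTORC1 complex, or vehicle. After 2 h all 3 groups, vehicle included, were given 1% weight per volume (10 mg per mL) spinal cord homogenate for 24 h as a source of lipid, so no group shows macrophages without homogenate. The homogenate came from pooled cords of male and female C57BL/6 mice, and marrow of different animals was kept apart. Rapamycin served in the study as a control for mTORC1 inhibition, since by the series design it leaves lipid accumulation as it was while Torin-2 lowers lipid droplets. Neither compound's dose is given in the labels. Gene positions below are those of GENCODE M21 on build GRCm38.

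Phosphatidylcholine and phosphatidylethanolamine are built in the Kennedy pathway, in which choline or ethanolamine is phosphorylated, joined to CDP and then transferred to diacylglycerol. In the other branch phosphatidic acid is joined to CDP to give CDP-diacylglycerol, from which phosphatidylinositol is made in the endoplasmic reticulum and cardiolipin in mitochondria. Mammalian phosphatidylserine is made by exchanging the head group of an existing phospholipid, and mitochondria turn part of it into phosphatidylethanolamine. Phosphatidylcholine also coats lipid droplets, and macrophages loaded with cholesterol are known to raise its synthesis.

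Total counts ran from 16116666 to 24044329 per library. All 10 macrophage markers examined were expressed, with summed levels of 15300 to 17200 CPM (counts scaled to a common library size) with Torin-2, 20100 to 21800 with rapamycin and 12400 to 17100 with vehicle, while the T cell markers Cd3e and Cd3g had no count in any library. The sums are mostly Lyz2 (8130 to 15800 CPM). Of the 10, 3 rose and 4 fell with Torin-2 against vehicle, among them Aif1 (-2.09) and Fcgr1 (-1.42), 6 rose and 3 fell with rapamycin against vehicle, and 1 was higher and 8 lower with Torin-2 than with rapamycin. Of all tested genes 65.4% were called with Torin-2 against vehicle (32.5% higher and 32.9% lower). The shares were 50.8% with rapamycin against vehicle (24.6% and 26.2%) and 48.2% with Torin-2 against rapamycin (24.2% and 24.1%). These shares stand beside every marker count in this paragraph. Myelin transcripts were present in all libraries, and 9 oligodendrocyte markers summed to 366 to 423 CPM with Torin-2, 693 to 848 CPM with rapamycin and 481 to 614 CPM with vehicle. Of the 6 tested, 5 fell with Torin-2 against vehicle, and with rapamycin 3 rose and 1 fell. The 7 fibroblast markers summed to 3.04 to 9.25 CPM with Torin-2, 13.3 to 82.8 CPM with rapamycin and 9.87 to 40.1 CPM with vehicle, and of the 4 tested 3 fell with Torin-2. Astrocyte markers summed to at most 14.1 CPM with Torin-2, 31.5 CPM with rapamycin and 19.8 CPM with vehicle. In the same order the highest sums were 7.01, 13.3 and 11.6 CPM for neuron markers and 9.46, 8.88 and 9.24 CPM for endothelial markers. For neutrophil markers they were 2.39, 4.89 and 3.55 CPM. The part of such RNA in the results below was not tested, and in bulk RNA fewer cells of a type and less RNA per cell cannot be told apart. The library with replicate number 3 in each group stood apart on the third principal component (7.56% of the variance), at -11.4 to -23.9 against 5.51 to 10.8 for the others. With those 3 libraries left out, an alternative chosen after seeing the data, every count of called members given below was the same.

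The start regions of 4 of these genes are shown because Pcyt1a and Cds2 were the ones that rose under both drugs, whereas Cept1 and Chpt1, which encode enzymes for the same last step, were lowest under different drugs. Each is the 250 bases before the RefSeq transcription start (build GRCm38.p6), 5′ to 3′, with capitals marking every match, on either strand, to the motifs CCAAT (the NF-Y box), GGGCGG (a GC box), CACGTG (an E-box), GTAAACA (a FOXO core) and TCACNCCAC (a sterol regulatory element of the kind found in the LDL receptor promoter).
Pcyt1a (chr16:32430671-32430920, plus strand): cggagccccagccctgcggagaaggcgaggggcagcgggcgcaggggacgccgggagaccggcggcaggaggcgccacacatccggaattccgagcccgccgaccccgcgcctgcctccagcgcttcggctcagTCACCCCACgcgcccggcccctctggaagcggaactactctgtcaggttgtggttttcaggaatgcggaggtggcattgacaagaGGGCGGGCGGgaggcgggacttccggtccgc
Cds2 (chr2:132262898-132263147, plus strand): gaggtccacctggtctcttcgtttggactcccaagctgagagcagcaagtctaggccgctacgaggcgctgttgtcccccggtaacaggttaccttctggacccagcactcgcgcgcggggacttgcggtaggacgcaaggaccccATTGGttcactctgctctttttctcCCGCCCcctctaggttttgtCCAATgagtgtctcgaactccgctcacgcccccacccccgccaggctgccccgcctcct
Cept1 (chr3:106547803-106548052, minus strand): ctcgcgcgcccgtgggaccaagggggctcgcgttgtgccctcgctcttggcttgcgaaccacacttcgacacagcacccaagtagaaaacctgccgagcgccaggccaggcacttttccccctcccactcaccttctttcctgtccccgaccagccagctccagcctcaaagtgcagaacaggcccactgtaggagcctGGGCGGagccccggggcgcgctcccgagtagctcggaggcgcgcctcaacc
Chpt1 (chr10:88503971-88504220, minus strand): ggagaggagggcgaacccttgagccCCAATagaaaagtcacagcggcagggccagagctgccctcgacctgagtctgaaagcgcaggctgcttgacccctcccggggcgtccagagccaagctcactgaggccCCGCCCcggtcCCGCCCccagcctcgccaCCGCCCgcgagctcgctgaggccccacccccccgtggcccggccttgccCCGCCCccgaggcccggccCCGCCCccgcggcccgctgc
Promoter sequence was matched for 7 of the 10 genes. The sterol element match, TCACCCCAC, begins 116 bases before the Pcyt1a start, was absent from the other 6 windows, and occurs in 1.03% of 27025 gene promoters searched the same way. Cds2 has 2 CCAAT matches and Chpt1 has 1, where 34.5% of promoters hold at least 1, and the Pcyt1a and Cept1 windows have none. GC boxes, found in 33.0% of promoters, number 5 before Chpt1, 2 overlapping ones before Pcyt1a and 1 each before Cds2 and Cept1. No E-box (6.04% of promoters) or FOXO core (3.06%) lies in any of the 7 windows. These are letter matches and not evidence of binding.

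With Torin-2 against vehicle, 4 of the 10 transcripts rose and 3 fell, that is 7 of 10 where 65.4% of all tested genes passed the threshold, an adjusted p under 0.05 (edgeR's quasi-likelihood test, Benjamini-Hochberg) (32.5% higher and 32.9% lower). Cds2, Pcyt1a, Chka and Pisd rose, while Cept1, Cdipt and Chpt1 fell. With rapamycin against vehicle 2 rose, Cds2 and Pcyt1a, and 3 fell, Chpt1, Chkb and Ptdss1, against 50.8% of all genes called (24.6% higher and 26.2% lower). With Torin-2 against rapamycin 6 were higher (Chka, Pcyt1a, Pisd, Cds2, Chkb and Chpt1) and 2 lower (Cept1 and Cdipt), where 24.2% of all genes were higher and 24.1% lower, or 48.2% in all. The median log2 fold change of the 10 was 0.14, -0.01 and 0.30 in these comparisons, in the order given, beside -0.01, 0.00 and 0.00 over all tested genes. The 2 comparisons with vehicle share the vehicle libraries, so their values are not independent. For Torin-2 against vehicle 5 members were higher and 3 lower without overlap (70.2% of all genes in either direction, 35.1% in each). For rapamycin against vehicle 2 were higher and 3 lower (57.5% of all genes, 27.8% higher and 29.7% lower), and for Torin-2 against rapamycin 7 were higher and 2 lower (57.2% of all genes, 28.9% higher and 28.2% lower). Against vehicle the members' shares of calls were near those of all genes with either drug, so their number is no result about them, and the values below carry the description. Pcyt2 passed in none of the comparisons.

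**Figure D1:**
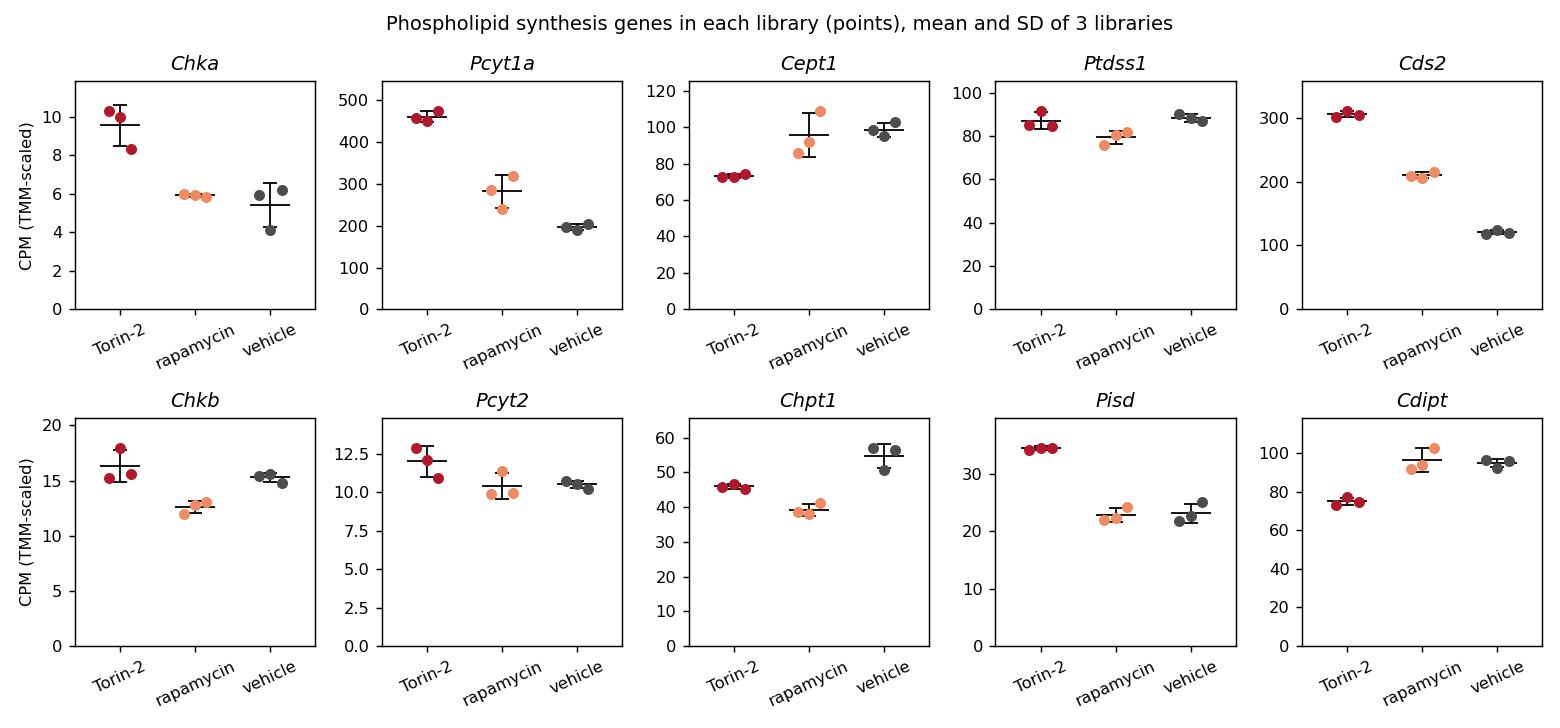
Level of each of the 10 transcripts in CPM (vertical axes, from 0) in the 3 libraries of the Torin-2, rapamycin and vehicle groups; points are libraries and bars give the mean and SD. Cds2 and Pcyt1a step down from Torin-2 through rapamycin to vehicle, Pisd lies at 34.1 to 34.6 CPM with Torin-2 and at 21.8 to 25.1 CPM in the other libraries, and Cept1 and Cdipt are lowest with Torin-2.

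The kinases Chka and Chkb begin the choline branch by phosphorylating choline, and both also accept ethanolamine. Chka (ENSMUSG00000024843, chr19:3851773-3894369) had 10.3, 10.0 and 8.30 CPM with Torin-2, 5.99, 5.92 and 5.81 CPM with rapamycin and 5.95, 4.13 and 6.21 CPM with vehicle. Every Torin-2 library lay above all others, whereas the rapamycin libraries lay within the range of the vehicle libraries. Chka rose with Torin-2 by 0.81 ± 0.16 (log2 fold change ± SE) against vehicle (adjusted p = 0.000698) and by 0.69 ± 0.16 against rapamycin (adjusted p = 0.00357, edgeR, Benjamini-Hochberg). For rapamycin against vehicle its log2 fold change was 0.12, with a 95% interval of -0.24 to 0.48. It rests on 85 to 202 counts per library, the fewest of the 10 genes. Chkb (ENSMUSG00000022617, chr15:89426360-89429908), the isoenzyme whose loss causes muscular dystrophy in mice, had 15.2, 18.0 and 15.6 CPM with Torin-2, 12.0, 12.8 and 13.1 CPM with rapamycin and 15.4, 15.6 and 14.8 CPM with vehicle. The rapamycin libraries were the lowest, and the Torin-2 and vehicle libraries overlapped. Chkb fell with rapamycin against vehicle (-0.28 ± 0.09, adjusted p = 0.0252, edgeR, Benjamini-Hochberg), a call that was lost without rapamycin replicate 1 (adjusted p = 0.0850) or 2 (0.0529) and without vehicle replicate 1 (0.0678) or 2 (0.0670), and with DESeq2's test in place of edgeR's (0.0559). Torin-2 against rapamycin gave 0.36 ± 0.09 for Chkb, with an adjusted p of 0.00615 by the same test. Chkb shares 1552 exon bases with a second annotated coding gene on its strand, Gm44502. That gene has no row in the count table, so the reads of Chkb could include those of Gm44502 and this cannot be examined here.

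The transferases Pcyt1a and Pcyt2 make the CDP-linked head group, usually the slowest step of the pathway. Pcyt1a (ENSMUSG00000005615, chr16:32430921-32475070), the enzyme for CDP-choline, had 457, 450 and 475 CPM with Torin-2, 285, 241 and 319 CPM with rapamycin and 198, 190 and 203 CPM with vehicle. The groups did not overlap, and the rapamycin libraries were the most spread, from 241 to 319 CPM. Pcyt1a rose with Torin-2 by 1.23 ± 0.09 (log2 fold change ± SE, 2.34-fold, adjusted p = 1.44e-07) and with rapamycin by 0.52 ± 0.08 (1.43-fold, adjusted p = 0.000355, edgeR, Benjamini-Hochberg). It was higher with Torin-2 than with rapamycin by 0.71 ± 0.08 (adjusted p = 3.14e-05, same test). Pcyt2 (ENSMUSG00000025137, chr11:120610087-120617936), the enzyme for CDP-ethanolamine, had 12.9, 12.1 and 10.9 CPM with Torin-2, 9.91, 11.4 and 9.97 CPM with rapamycin and 10.7, 10.5 and 10.2 CPM with vehicle. The Torin-2 libraries were above the vehicle libraries by a small margin, and those of rapamycin overlapped both groups. Its log2 fold change was 0.19 for Torin-2 against vehicle, with a 95% interval of -0.04 to 0.41 (adjusted p = 0.128), and 0.00 for rapamycin against vehicle, with an interval of -0.23 to 0.22 (adjusted p = 0.977, edgeR, Benjamini-Hochberg). With Torin-2 against rapamycin it was 0.19 (-0.03 to 0.42, adjusted p = 0.147, same test). A doubling of Pcyt2 such as that of Pcyt1a thus lies outside all 3 intervals.

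The last Kennedy step moves the head group to diacylglycerol. Cept1 (ENSMUSG00000040774, chr3:106502260-106547802), which accepts both CDP-choline and CDP-ethanolamine, had 72.9, 72.4 and 74.3 CPM with Torin-2, 86.0, 92.1 and 109 CPM with rapamycin and 98.4, 94.9 and 103 CPM with vehicle. All Torin-2 libraries were below all others, and rapamycin and vehicle libraries overlapped. Cept1 fell with Torin-2 by 0.43 on the log2 scale against vehicle (-0.43 ± 0.08, adjusted p = 0.000431) and was lower than with rapamycin (-0.39 ± 0.08, adjusted p = 0.00159, edgeR, Benjamini-Hochberg). Chpt1 (ENSMUSG00000060002, chr10:88452745-88504073), which is specific for CDP-choline, had 45.9, 46.6 and 45.3 CPM with Torin-2, 38.6, 37.9 and 41.3 CPM with rapamycin and 57.2, 50.8 and 56.4 CPM with vehicle. Here rapamycin gave the lowest libraries and Torin-2 stood between them and vehicle, with no overlap of groups. The fall was -0.26 ± 0.06 with Torin-2 (adjusted p = 0.00384) and -0.48 ± 0.06 with rapamycin (adjusted p = 8.21e-05, edgeR, Benjamini-Hochberg). Torin-2 against rapamycin gave 0.23 ± 0.06 (adjusted p = 0.0127), a call that was lost without rapamycin replicate 2 (0.0538). Cept1 shares 771 exon bases with Dennd2d on the opposite strand, which averaged 5.23 CPM with Torin-2, 3.95 CPM with rapamycin and 9.15 CPM with vehicle, and Chpt1 shares 660 with Sycp3, at 0.0984, 0.0382 and 0.0446 CPM in the same groups. Whether the counts used strand is not stated in the labels, so such shared bases leave some reads uncertain.

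**Figure D2:**
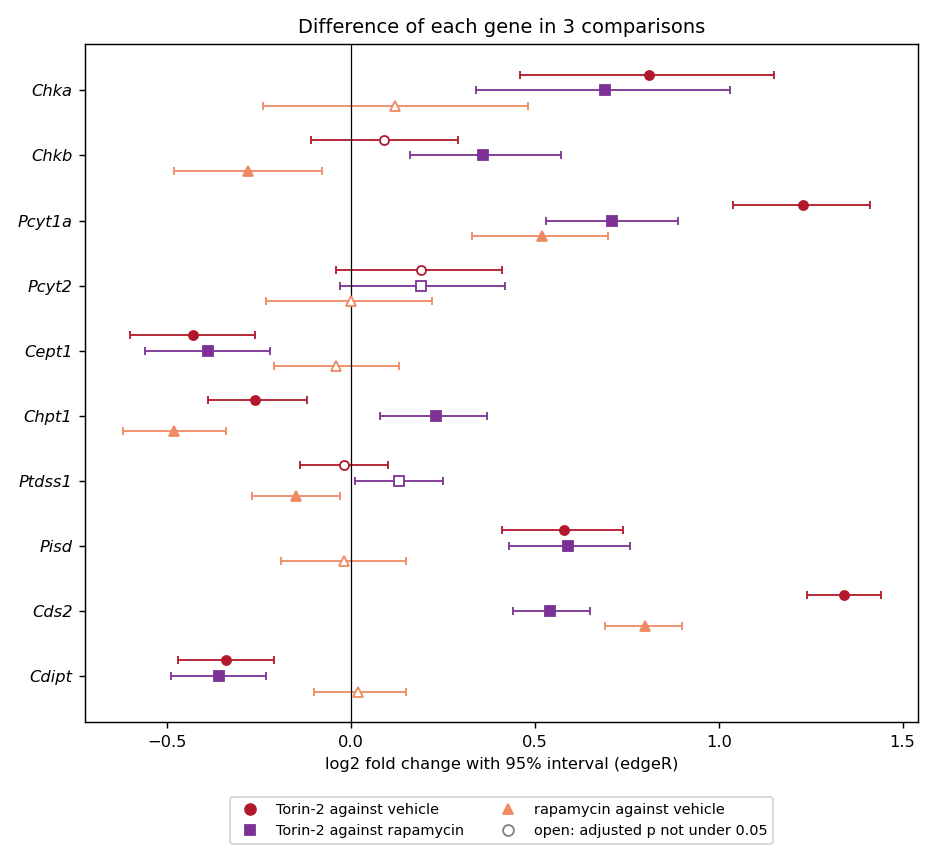
Log2 fold change with its 95% interval (horizontal axis) for each gene in Torin-2 against vehicle (circles), Torin-2 against rapamycin (squares) and rapamycin against vehicle (triangles); open symbols did not pass at an adjusted p under 0.05. Cds2 (1.34 and 0.80) and Pcyt1a (1.23 and 0.52) rose under both drugs against vehicle, Chka, Pisd, Cept1 and Cdipt passed against vehicle with Torin-2 and not with rapamycin, and for these 4 the difference between the drugs also passed.

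Phosphatidylserine synthase Ptdss1 takes phosphatidylcholine as its substrate, and the decarboxylase Pisd turns phosphatidylserine into phosphatidylethanolamine in the inner mitochondrial membrane. Ptdss1 (ENSMUSG00000021518, chr13:66932830-66998401) had 85.1, 91.7 and 84.9 CPM with Torin-2, 76.1, 80.6 and 81.8 CPM with rapamycin and 90.1, 88.2 and 86.8 CPM with vehicle. The Torin-2 and vehicle libraries overlapped and the rapamycin libraries were lowest by a small margin. Ptdss1 fell with rapamycin (-0.15 ± 0.05, adjusted p = 0.0355), while Torin-2 gave -0.02 against vehicle (95% interval -0.14 to 0.10, adjusted p = 0.771) and 0.13 against rapamycin (0.01 to 0.25, adjusted p = 0.0638, edgeR, Benjamini-Hochberg). The rapamycin call was lost (adjusted p in parentheses) without Torin-2 replicate 1 (0.0553), rapamycin replicate 1 (0.124) or 2 (0.0612), or vehicle replicate 1 (0.115), 2 (0.0709) or 3 (0.0501), and with only the rapamycin and vehicle libraries in the fit (0.0818). When genes of low counts were kept in the fit, both Ptdss1 (0.164) and Chkb (0.0869) lost their calls, leaving 1 member, Chpt1, that fell with rapamycin. Pisd (ENSMUSG00000023452, chr5:32736301-32785646) had 34.1, 34.6 and 34.6 CPM with Torin-2, 21.9, 22.3 and 24.3 CPM with rapamycin and 21.8, 22.6 and 25.1 CPM with vehicle. The Torin-2 libraries were nearly equal and above all others, and the rapamycin and vehicle libraries had almost the same range. Pisd rose with Torin-2 by 0.58 ± 0.08 against vehicle (1.49-fold, adjusted p = 2.99e-05) and by 0.59 ± 0.08 against rapamycin (adjusted p = 5.65e-05, edgeR, Benjamini-Hochberg). Rapamycin against vehicle gave -0.02, with an interval of -0.19 to 0.15.

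Mouse Pisd has pseudogene copies elsewhere in the genome, and how the authors' counting treated reads shared with them is not stated in the labels. Pisd-ps1 averaged 12.1 CPM with Torin-2, 6.66 CPM with rapamycin and 16.3 CPM with vehicle, and fell with both Torin-2 (-0.43, adjusted p = 0.00929) and rapamycin (-1.29, adjusted p = 1.18e-05, edgeR, Benjamini-Hochberg). Pisd-ps2 averaged 4.53 CPM with Torin-2, 2.53 CPM with rapamycin and 5.06 CPM with vehicle. Against rapamycin both copies were higher with Torin-2, as Pisd was: Pisd-ps1 by 0.86 (adjusted p = 0.000245) and Pisd-ps2 by 0.82 (adjusted p = 0.00804, edgeR, Benjamini-Hochberg). The split of reads between Pisd and its copies remains uncertain, and its part in the Pisd values was not tested.

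Cds2 makes CDP-diacylglycerol in the endoplasmic reticulum and Cdipt joins it to inositol, giving the phosphatidylinositol on which PI3-kinases act after further phosphorylation. Cds2 (ENSMUSG00000058793, chr2:132263148-132312050) had 302, 311 and 305 CPM with Torin-2, 209, 205 and 215 CPM with rapamycin and 118, 124 and 120 CPM with vehicle. The 3 groups were far apart compared with the spread within each, with SDs of 4.47, 4.94 and 3.10 CPM. Cds2 rose by 1.34 ± 0.05 with Torin-2 (2.53-fold, adjusted p = 8.3e-10) and by 0.80 ± 0.05 with rapamycin (1.74-fold, adjusted p = 2.28e-07), and was higher with Torin-2 than with rapamycin by 0.54 ± 0.05 (adjusted p = 2.97e-06, edgeR, Benjamini-Hochberg). Cdipt (ENSMUSG00000030682, chr7:126975914-126980501) had 73.0, 77.2 and 74.9 CPM with Torin-2, 91.7, 94.0 and 103 CPM with rapamycin and 96.5, 92.4 and 95.8 CPM with vehicle. Its Torin-2 libraries were below all others and its rapamycin libraries spanned the vehicle range. Cdipt fell with Torin-2 against vehicle (-0.34 ± 0.06, adjusted p = 0.00027) and was lower than with rapamycin (-0.36 ± 0.06, adjusted p = 0.000316, edgeR, Benjamini-Hochberg). Rapamycin against vehicle gave 0.02 for Cdipt, with a 95% interval of -0.10 to 0.15. The consecutive enzymes of this branch therefore moved in opposite directions with Torin-2.

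Ratios of 2 transcripts within a library do not depend on how libraries are scaled, and 4 pairs were set side by side in 3 comparisons. The log2 ratio of Chka to Chkb counts averaged -0.77 ± 0.18 with Torin-2, -1.09 ± 0.09 with rapamycin and -1.52 ± 0.36 with vehicle (SD, n = 3 each), so the Chka share was highest with Torin-2. Pcyt1a exceeded Pcyt2 by 5.27 ± 0.16 with Torin-2, 4.75 ± 0.31 with rapamycin and 4.23 ± 0.08 with vehicle, a shift of 1.04 or 2.05-fold for Torin-2 against vehicle towards the choline enzyme. The ratio of Cept1 to Chpt1 was 0.67 ± 0.04 with Torin-2, 1.28 ± 0.12 with rapamycin and 0.85 ± 0.06 with vehicle, so that it moved by -0.18 with Torin-2 and by 0.43 with rapamycin against vehicle. The 2 drugs shifted this balance in opposite directions, and Torin-2 and rapamycin differed by -0.61. Ptdss1 to Ptdss2, which takes phosphatidylethanolamine in place of phosphatidylcholine, was 1.12 ± 0.10 with Torin-2, 1.48 ± 0.02 with rapamycin and 1.61 ± 0.08 with vehicle. In all 12 differences the groups did not overlap, as was so for 57.2% to 70.2% of single genes in these comparisons. How often the ratios of other gene pairs do so was not tested. Each of the 12 differences gave p = 0.1 by an exact 2-sided permutation test (0.1 after Benjamini-Hochberg adjustment over the 12). This is the smallest p that 3 against 3 libraries can give and does not pass 0.05. That test left the pairing of libraries by replicate number unused. With libraries paired, an exact 2-sided permutation test by sign flips gave p = 0.25 for each difference. This is again the smallest p such a test can give here, so neither test could pass 0.05.

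**Figure D3:**
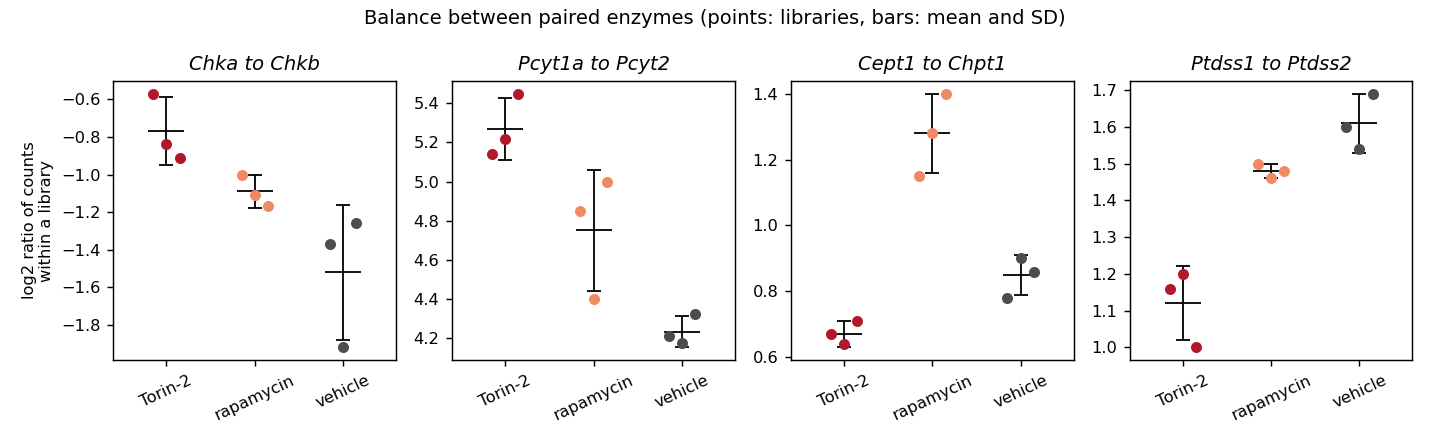
Log2 ratio of the counts of 2 genes within each library (vertical axes, each with its own range and not from 0) for 4 enzyme pairs in the Torin-2, rapamycin and vehicle groups; points are libraries and bars give the mean and SD. Chka to Chkb and Pcyt1a to Pcyt2 are highest with Torin-2, Ptdss1 to Ptdss2 is lowest with Torin-2, and Cept1 to Chpt1 is highest with rapamycin (1.28 ± 0.12).

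To compare levels between the 10 genes, CPM were divided by the length of all annotated exons in kb. With vehicle the order was Cdipt (36.6 ± 0.854, SD, n = 3), Cept1 (31.7 ± 1.23), Pcyt1a (26.6 ± 0.913), Ptdss1 (20.6 ± 0.390) and Cds2 (13.2 ± 0.340), followed by Chpt1 (6.59 ± 0.421), Chkb (5.0 ± 0.135), Pisd (4.02 ± 0.302), Pcyt2 (2.41 ± 0.0582) and Chka (0.452 ± 0.0945). With Torin-2 Pcyt1a (62.2 ± 1.70) and Cds2 (33.5 ± 0.490) came before Cdipt (29.0 ± 0.795), Cept1 (23.5 ± 0.306) and Ptdss1 (20.3 ± 0.898). With rapamycin Pcyt1a (38.0 ± 5.29) had the highest mean, but its mean ± SD range overlapped those of Cdipt (37.2 ± 2.40) and Cept1 (30.7 ± 3.85). Cds2 (23.0 ± 0.541) and Ptdss1 (18.5 ± 0.690) came next. Among the lower genes, Chpt1 (5.52 ± 0.0767) and Chkb (5.32 ± 0.482) did not differ beyond their spread with Torin-2, nor did Chkb (4.12 ± 0.188) and Pisd (3.97 ± 0.221) with rapamycin. The length chosen matters: per kb of the longest transcript Pcyt1a (41.1 ± 1.41) stood above Cept1 (35.1 ± 1.36) with vehicle, and with Torin-2 Cdipt (38.0 ± 1.04) stood above Cds2 (36.4 ± 0.532). By that length Pcyt1a (58.8 ± 8.18) was also clear of Cept1 (34.0 ± 4.27) with rapamycin. Pisd (7.47 ± 0.561) then stood above Chkb (6.23 ± 0.169) with vehicle. These are examples and not every change of order. Chka was lowest in all 3 groups by either length, at 2.05, 1.27 and 1.17 CPM per kb of its longest transcript with Torin-2, rapamycin and vehicle.

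Of 11 other enzymes of both branches 10 were tested, and 3 rose and 6 fell with Torin-2 against vehicle. Of all tested genes 32.5% were higher and 32.9% lower in that comparison, or 65.4% in all. The median log2 fold change of the 10 was -0.46 beside -0.01 over all tested genes. The risers belong to phosphatidylethanolamine and phosphatidylserine synthesis. Etnk1, the ethanolamine kinase, had 100, 102 and 105 CPM with Torin-2, 65.5, 71.9 and 85.4 CPM with rapamycin and 51.2, 47.7 and 52.1 CPM with vehicle. It rose with Torin-2 (1.02 ± 0.08, adjusted p = 6.21e-07) and with rapamycin (0.56 ± 0.09, adjusted p = 0.000201, edgeR, Benjamini-Hochberg). Selenoi, the ethanolamine phosphotransferase, averaged 46.2 ± 1.76 CPM with Torin-2, 32.0 ± 3.62 CPM with rapamycin and 29.9 ± 2.45 CPM with vehicle, and rose with Torin-2 (0.63 ± 0.09, adjusted p = 5.66e-05) while rapamycin gave 0.10 with an interval of -0.10 to 0.30. Ptdss2 rose with Torin-2 against rapamycin by 0.50 ± 0.07 (adjusted p = 0.000179) and against vehicle by 0.47 ± 0.07 (adjusted p = 0.000124), by edgeR with Benjamini-Hochberg adjustment, while rapamycin against vehicle gave -0.02 (interval -0.19 to 0.14). On the ethanolamine route, then, Etnk1 and Selenoi rose with Torin-2, the change of Pcyt2 did not pass, and Cept1, which also takes CDP-ethanolamine, fell (-0.43).

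The fallers on this list include the 4 mitochondrial enzymes that lead from phosphatidic acid to cardiolipin. Tamm41, which makes CDP-diacylglycerol in mitochondria, averaged 5.21 ± 0.284 CPM with Torin-2, 4.23 ± 0.721 CPM with rapamycin and 7.87 ± 1.29 CPM with vehicle. Pgs1, the next enzyme, had 24.5, 28.0 and 29.4 CPM with Torin-2, 29.1, 34.2 and 29.7 CPM with rapamycin and 41.7, 43.4 and 43.3 CPM with vehicle. Both groups of treated libraries lay below vehicle for Pgs1, at -0.65 ± 0.09 with Torin-2 (adjusted p = 3.08e-05) and -0.46 with rapamycin (adjusted p = 0.000784, edgeR, Benjamini-Hochberg). The phosphatase Ptpmt1 (-0.29 with Torin-2 and -0.36 with rapamycin) and cardiolipin synthase Crls1 (-0.52 and -0.51) fell under both drugs as well, as did Cds1, the isoenzyme of Cds2 (-0.51 and -0.46); these 3 and Pcyt1b were named after their values were seen, to complete the branch. Cds1 had 7.97, 7.71 and 7.56 CPM with Torin-2, 7.79, 8.29 and 7.92 CPM with rapamycin and 10.7, 12.2 and 10.3 CPM with vehicle, a fall under both drugs where Cds2 rose. Pcyt1b, the low isoenzyme of Pcyt1a, averaged 0.297 CPM with Torin-2, 0.851 CPM with rapamycin and 1.28 CPM with vehicle and fell with Torin-2 (-2.05 ± 0.39, adjusted p = 0.000501, edgeR, Benjamini-Hochberg). With rapamycin against vehicle 1 of the 10 rose and 6 fell, where 24.6% of all tested genes were higher and 26.2% lower. Among the fallers was Pemt, which methylates phosphatidylethanolamine to phosphatidylcholine (-1.02, at 0.914 CPM with rapamycin against 1.86 CPM with vehicle). With Torin-2 against rapamycin 3 were higher and 1 lower, or 2 lower with the replicate number as a block. Of all tested genes 24.2% were higher and 24.1% lower in that comparison, or 48.2% in all. The 4 cardiolipin genes Tamm41 (0.29), Pgs1 (-0.18), Ptpmt1 (0.07) and Crls1 (-0.01) did not pass in that comparison. Ptpmt1 shares 1657 exon bases with Kbtbd4 on the opposite strand, so part of its reads is uncertain.

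**Figure D4:**
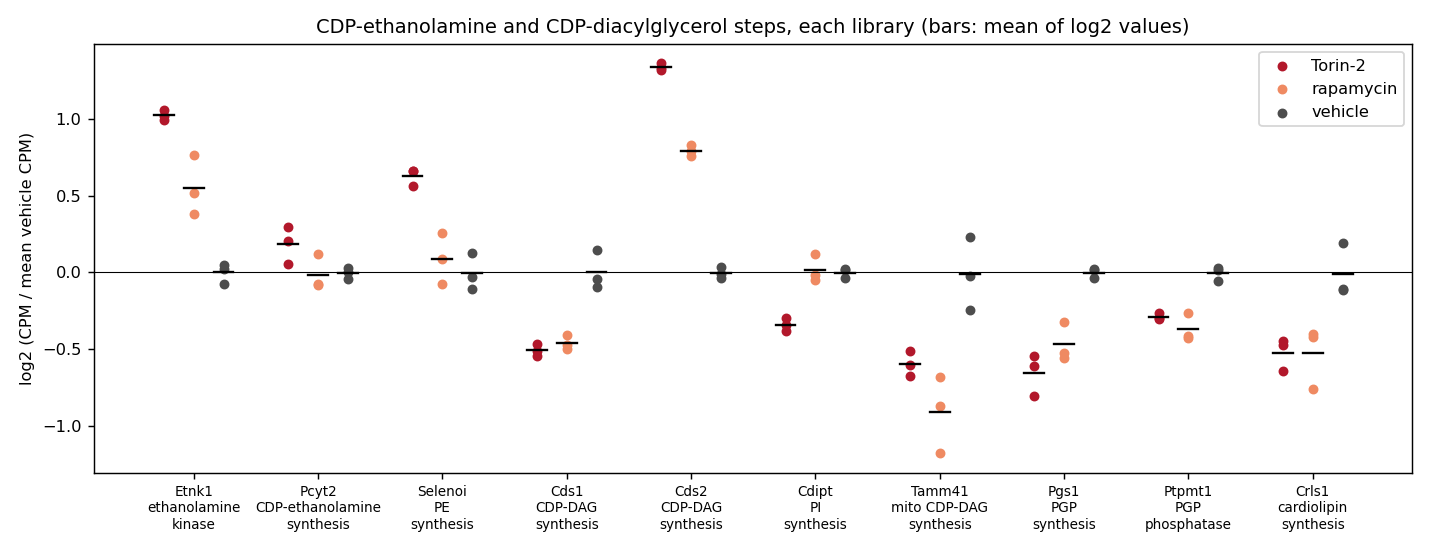
Log2 of CPM over the vehicle mean (vertical axis) in each library for 3 genes of the ethanolamine route (Etnk1, Pcyt2, Selenoi; Cept1 is not drawn) and the CDP-diacylglycerol branch (Cds1, Cds2, Cdipt and the mitochondrial Tamm41, Pgs1, Ptpmt1 and Crls1), with Torin-2, rapamycin and vehicle from left to right within each gene; bars are means of the log2 values. Etnk1, Selenoi and Cds2 lie above 0 with Torin-2, and so does Pcyt2, whose change did not pass. Cds1, Cdipt and the 4 cardiolipin genes lie below 0 with Torin-2.

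Counts in the lists that follow stand beside 65.4% of all tested genes called with Torin-2 against vehicle and 50.8% with rapamycin against vehicle, so a list called at about those shares is no result about that list. Genes that supply the head groups moved in both directions. Of 19 such genes 15 were tested, and 7 rose and 6 fell with Torin-2 against vehicle (median 0.16). Pnpla7, a lysophospholipase that frees glycerophosphocholine, had 230, 222 and 234 CPM with Torin-2, 127, 132 and 130 CPM with rapamycin and 65.5, 70.6 and 66.5 CPM with vehicle. It rose by 1.76 ± 0.05 with Torin-2 (adjusted p = 2.99e-10) and by 0.94 ± 0.05 with rapamycin (adjusted p = 1.27e-07, edgeR, Benjamini-Hochberg). For inositol, the transporter Slc5a3 averaged 12.3 ± 1.66 CPM with Torin-2, 6.53 ± 0.901 CPM with rapamycin and 5.65 ± 0.861 CPM with vehicle and rose with Torin-2 (1.11 ± 0.15), whereas the synthase Isyna1 averaged 47.1 ± 4.17 CPM with Torin-2, 54.4 ± 10.1 CPM with rapamycin and 104 ± 5.35 CPM with vehicle and fell under both drugs (-1.14 and -0.93). Gde1, a glycerophosphodiesterase, also fell under both (-0.63 with Torin-2 and -0.54 with rapamycin). With rapamycin against vehicle 6 rose and 4 fell (median 0.20), the inositol monophosphatase Impa2 by -1.11 (-0.30 with Torin-2) and, among the risers, Phospho1, a phosphocholine and phosphoethanolamine phosphatase, by 1.10. The choline transporter Slc44a1 averaged 168 ± 15.6 CPM with Torin-2, 197 ± 8.53 CPM with rapamycin and 103 ± 6.66 CPM with vehicle, so that it rose under both drugs (0.70 and 0.93) and was lower with Torin-2 than with rapamycin (-0.23, adjusted p = 0.0205, edgeR, Benjamini-Hochberg). The glycerophosphodiesterase gene Gdpd1 was higher with Torin-2 than with rapamycin (0.83). Impa2 shares 1264 exon bases with B430212C06Rik. Of the 2029 exon bases of Phospho1, 1818 are shared with Zfp652 and 1708 with Abi3. The reads of Impa2 and Phospho1 are therefore uncertain, and Phospho1 was sparse, at 3.21 CPM with rapamycin against 1.51 CPM with vehicle.

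Of 15 genes that supply phosphatidic acid and diacylglycerol, 13 were tested, and 4 rose and 6 fell with Torin-2 against vehicle (median -0.11). The lipin Lpin1, which makes diacylglycerol from phosphatidic acid, averaged 24.9 ± 2.87 CPM with Torin-2, 25.0 ± 3.61 CPM with rapamycin and 11.7 ± 1.74 CPM with vehicle and rose under both drugs (1.09 and 1.10). Lpin2 averaged 50.8 ± 3.58 CPM with Torin-2, 78.3 ± 7.22 CPM with rapamycin and 49.1 ± 2.45 CPM with vehicle, and rose with rapamycin (0.67). The acyltransferase Agpat2 rose with Torin-2 (0.73), while Gpat4 fell with Torin-2 (-0.68) and with rapamycin (-0.35) and the sparse Gpat3, at 0.273 CPM with Torin-2, 0.71 CPM with rapamycin and 2.06 CPM with vehicle, also fell under both (-2.87 ± 0.45 and -1.49 ± 0.39). Gpat3 shares 1052 exon bases with 4930458D05Rik on the opposite strand, so part of its reads is uncertain. With rapamycin against vehicle 4 rose and 4 fell (median 0.06), and the rises numbered 2 without vehicle replicate 1 or with libraries scaled by totals alone. With Torin-2 against rapamycin 1 was higher, Agpat2 (0.59), and 7 were lower, among them Lpin2 (-0.62) and Gpat3 (-1.39), with a median of -0.21 beside 0.00 over all tested genes, of which 24.1% were lower.

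Downstream, genes that remodel, move and use phospholipids were examined in 4 lists. Of 11 acyl remodelling genes tested, 3 rose and 5 fell with Torin-2 against vehicle (median -0.16), among them Mboat7, which puts arachidonate into phosphatidylinositol (0.86 ± 0.06, 126 ± 4.95 CPM with Torin-2 against 69.0 ± 3.06 CPM with vehicle), and the phospholipase A2 Pla2g4a, which releases it (-1.35 ± 0.08, 18.7 ± 1.56 CPM against 47.6 ± 2.66 CPM). The sparse Lpcat4 fell as well (-1.32, at 1.24 CPM with Torin-2 against 3.09 CPM with vehicle). Tafazzin (listed as Taz), which remodels cardiolipin, rose (0.49). With rapamycin 2 rose (Mboat7 by 0.35 and Taz by 0.21) and 4 fell, among them Pla2g4a (-0.33) and Pla2g6 (-0.47), and 1 rose without rapamycin replicate 2, vehicle replicate 1 or vehicle replicate 3, or with no filter or scaling by totals. Of 12 transfer protein genes 3 rose and 8 fell with Torin-2 against vehicle (median -0.39), with Pitpnm1 at 0.78, C2cd2l at -0.78 and the mitochondrial transfer gene Prelid3b at -0.63. The sparse Stard10 rose by 1.01 ± 0.32, at 1.91 ± 0.632 CPM with Torin-2 against 0.951 ± 0.236 CPM with vehicle. With rapamycin 2 rose, Pitpnm1 (0.91) and Pitpnc1 (0.52), and 5 fell, among them Prelid3b (-0.48) and Pitpnb (-0.46, and -0.24 with Torin-2). Triap1, a partner of the PRELI proteins, was higher with Torin-2 than with rapamycin (0.42).

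Of 9 phosphatidylinositol kinase genes tested, 5 rose and 2 fell with Torin-2 against vehicle (median 0.22), and 4 rose and 2 fell with rapamycin (median 0.12). Pip4k2a rose under both drugs (0.76 and 0.54) and the type II PI 4-kinase Pi4k2b fell under both (-0.69 and -0.54), at 32.4 ± 1.33 CPM with Torin-2, 36.0 ± 1.37 CPM with rapamycin and 52.4 ± 0.822 CPM with vehicle. Pip4k2c (0.36 with Torin-2 and 0.24 with rapamycin) and Pip5k1c (0.23 and 0.52) rose under both drugs. Pi4kb, a type III PI 4-kinase, also fell under both (-0.49 and -0.36). Among 6 phospholipase D and sphingomyelin synthase genes 4 rose and 2 fell with Torin-2 against vehicle (median 0.66). Pld2, which releases choline from phosphatidylcholine, averaged 45.6 ± 2.69 CPM with Torin-2, 25.3 ± 1.99 CPM with rapamycin and 23.0 ± 1.28 CPM with vehicle and rose with Torin-2 (0.99 ± 0.08) and against rapamycin (0.86 ± 0.08). Pld1 rose under both drugs (0.89 and 0.58). Napepld, which cleaves N-acyl phosphatidylethanolamine, fell under both (-1.55 and -0.59), and the sphingomyelin synthase Sgms2 fell with Torin-2 (-0.76). Samd8, a relative of the sphingomyelin synthases, was higher with Torin-2 than with rapamycin (0.43). With rapamycin 2 rose, the other being Sgms1 (0.83, and 0.67 with Torin-2), and 1 fell, and 2 fell without vehicle replicate 2 or with scaling by totals.

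**Figure D5:**
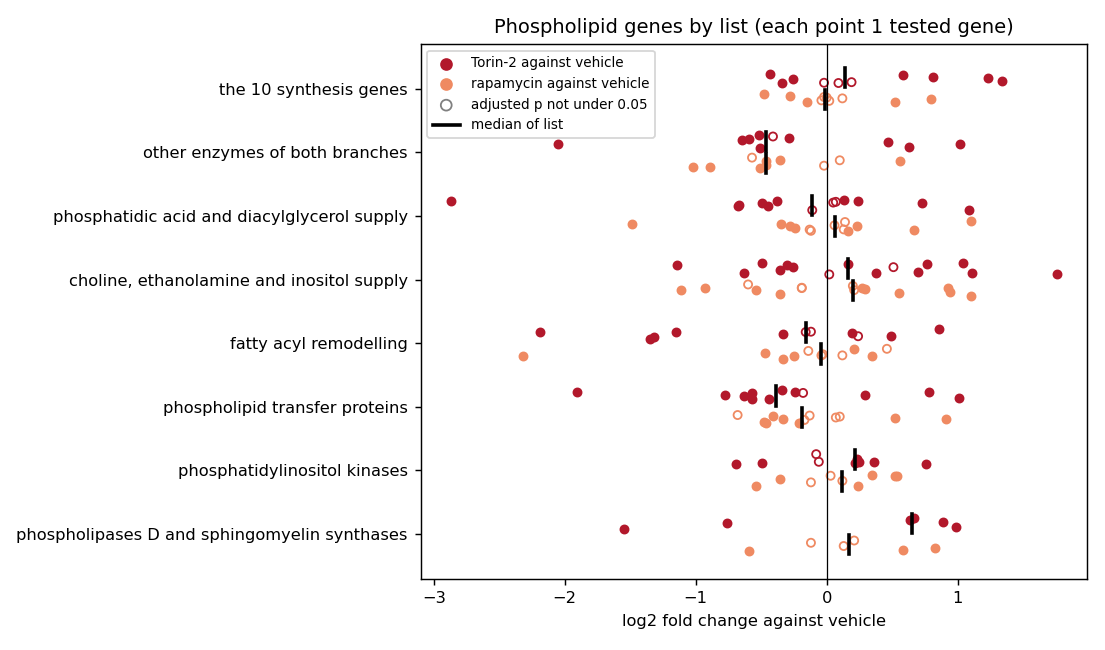
Log2 fold change against vehicle (horizontal axis) of every tested gene of the 10 synthesis genes and of 7 lists of other phospholipid genes, with Torin-2 above rapamycin within each list; filled points passed at an adjusted p under 0.05, open points did not, and black bars are list medians. The list of other enzymes of both branches has a median of -0.46 with either drug, and the 10 synthesis genes have 0.14 with Torin-2 and -0.01 with rapamycin.

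The 2 genes with the widest range of group means, Cds2 (1.34 on the log2 scale) and Pcyt1a (1.22), were compared with 8699 other genes of at least 5 CPM by the root mean square difference of centred log2 CPM over the 9 libraries. Nearest to Cds2 were Rassf3 (0.0401), Pcbp2 (0.0542) and Ddi2 (0.0610), where the median gene stood at 0.580. Rassf3 averaged 247 CPM with Torin-2, 177 CPM with rapamycin and 99.1 CPM with vehicle. Nearest to Pcyt1a were Rnf220 (0.0593), Ptafr (0.0632) and Tnfrsf26 (0.0684), where the median gene stood at 0.546. Ptafr, the receptor for platelet-activating factor, averaged 256 CPM with Torin-2, 148 CPM with rapamycin and 108 CPM with vehicle. These genes were selected for their likeness, which is given as a description only.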

How the data were processed

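RNA of 9 libraries of bone-marrow-derived macrophages was sequenced as paired-end reads of 100 bp after NuGEN Universal Plus mRNA library preparation, per the labels. The authors deposited 1 table of counts, not normalized, with a column for each library. STAR 2.5.2a, FastQC and bcl2fastq are named in the submitters' processing notes, with mm10 and GRCm38.p6 as builds. What counted the reads, with which annotation and strand setting, is not stated there. GENCODE M21 (GRCm38) held 53237 of the 53342 identifiers and gave exon lengths and overlaps.

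The tests used edgeR 4.0.16 under R 4.3.3. Genes were kept by filterByExpr, libraries were scaled by TMM, and 1 quasi-likelihood fit over 9 libraries in 3 groups, without covariates, gave 3 contrasts, tested 2-sided with Benjamini-Hochberg adjustment over 12511 genes at 0.05. CPM are TMM-scaled, changes are relative to other genes, and p-values measure the spread between these cultures. Depth limits Chka, Chkb and Pcyt2 most. No 2 libraries were identical.

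The members and lists were chosen with earlier results of these data known. All 10 members are named; of each list, the text takes genes from the largest called changes (at least 1 CPM), up to 2 higher and 2 lower per comparison. Alternatives were a replicate block, edgeR's RLE size factors, library totals, the test of DESeq2 1.42.0, no filter, only the groups compared, and leaving out libraries. Same-numbered libraries deviated together from their group means (correlations of 0.19 to 0.513 for 9 pairs, against -0.387 to 0.157 for 18 others), so the numbers were taken to pair libraries. Where they pair comes from the data and not from the labels.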

Additional observations from a re-analysis of the deposited data

How the results depend on the processing

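Of 480 values (30 member fold changes under 16 alternatives), 448 kept direction and side of the threshold, 15 lost a call, 1 gained a call and 16 changed sign. The sign changes were all of values that did not pass. For rapamycin against vehicle, Pcyt2 had a log2 fold change of 0.00 with RLE size factors and with DESeq2, 0.02 with only the groups compared and 0.01 without number 3 of every group; Cdipt had -0.07 with library totals alone and -0.03 without number 3 of every group; and Pisd had 0.00 with only the groups compared. Leaving out 1 library at a time gave ranges of -0.07 to 0.03 for Pcyt2, -0.03 to 0.06 for Cdipt, -0.07 to 0.04 for Pisd, -0.15 to 0.03 for Cept1 and -0.04 to 0.22 for Chka in that comparison, and -0.06 to 0.00 for Ptdss1 with Torin-2 against vehicle. The number of members that fell with rapamycin was 3, but 2 with DESeq2's test, 2 with only the groups compared, 1 with no filter on low counts and 1 to 3 with 1 library left out; the cause was not tested. With the replicate number as a block all 30 member fold changes kept their direction and side of the threshold, with 4 higher and 3 lower for Torin-2 against vehicle, 2 and 3 for rapamycin and 6 and 2 for Torin-2 against rapamycin.

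Scaled by library totals alone, the higher share of all calls with rapamycin against vehicle was 37.4% in place of 48.5%, and with Torin-2 against rapamycin 59.7% in place of 50.1%; Ptdss1 then passed for Torin-2 against rapamycin (0.21, adjusted p = 0.00872, edgeR, Benjamini-Hochberg). Of the values per length, 29 of 30 moved by more than their SD with the longest transcript. This follows from dividing each gene by another fixed length, so it says nothing about the spread of libraries, and only changes of order bear on the levels. Besides, 21 list counts moved by over 1.5 times under some alternative.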
